A study of Mus musculus with 6 samples.

Results

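The 9 genes described here encode CC chemokines, small secreted proteins that direct the migration of leukocytes through G protein-coupled receptors. They were taken by symbol from the 33456 genes of the count tables and are Ccl2 (ENSMUSG00000035385), Ccl7 (ENSMUSG00000035373), Ccl8 (ENSMUSG00000009185), Ccl12 (ENSMUSG00000035352), Ccl24 (ENSMUSG00000004814), Ccl3 (ENSMUSG00000000982), Ccl4 (ENSMUSG00000018930), Ccl6 (ENSMUSG00000018927) and Ccl9 (ENSMUSG00000019122). All 9 were found, each in 1 row. The study compared myeloid cells of visceral (epididymal) fat between mice of a high-fat diet group, labelled HFD (3 samples), and a control diet group (3 samples), to follow the myeloid compartment in long-term obesity. Cells were freed with collagenase at 37 °C and sorted for CD45, an antigen of all leukocytes, and CD11b, found on myeloid cells as part of an integrin, and their RNA was counted as unique molecular identifiers (UMIs), each standing for 1 captured transcript. No strain, genotype, age or number of animals is given in the labels, so the p-values rest on how far these samples differ, and that may be technical.

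Chemokines are known as the signals that bring monocytes out of the blood into fat. Ccl2, Ccl7 and Ccl12 act in the mouse through Ccr2, the receptor of classical monocytes, and Ccl8 acts in the mouse mainly through Ccr8. Ccl3 and Ccl4 are inflammatory chemokines made by activated macrophages and lymphocytes, and Ccl6 and Ccl9 are rodent ligands of Ccr1. Ccl24, an eotaxin, acts through Ccr3 and is known mainly for attracting eosinophils, so the common name of monocyte attractants fits it least. Fat holds resident macrophages near vessels, marked by Lyve1, Cd163 and Cd209 lectins, and in obesity it gains lipid-associated macrophages, marked by Trem2, Gpnmb and Mmp12.

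Of 2195 distinct cell barcodes, 1082 (49.3%) were listed in more than 1 sample. Each was counted only in the sample in which it had most UMIs, which left 2114 cells after quality filters, 453, 295 and 380 in HFD samples 1, 2 and 3 and 388, 260 and 338 in control samples 1, 2 and 3. The samples held between 1997647 and 5708323 UMIs, and the median per cell was 9735 in HFD and 7233.5 in control. Cells were clustered without 64 chemokine and chemokine receptor genes, so the classes rest on none of the 9 genes. The resident macrophage-like class (298 cells) was led by Cd209f, Cd209g, Cd209d, Cd209b, Lyve1 and Cd163, and the lipid-associated macrophage-like class (191 cells) by Spp1, Mmp12 and Gpnmb. The remaining macrophage-like cells (467), in 3 clusters, are called other macrophage-like here and had Hpgd, Gdf15, Ms4a7, Hilpda and Fabp4 among their leading genes. Of the 16 lipid-associated markers, 7, 15 and 10 were higher in these clusters (232, 138 and 97 cells) than in the remaining cells, beside 16 in the lipid-associated class. Class and diet were nearly separate: 3.81% of HFD cells and 25.9% of control cells were resident macrophage-like. Lipid-associated cells were 16.0% of HFD cells and 1.01% of control cells, and other macrophage-like cells 36.5% of HFD cells and 5.58% of control cells. The resident, lipid-associated and other macrophage-like cells of the HFD samples held 141, 2958 and 628 CPM of Gpnmb and 1664, 7.66 and 29.1 CPM of Cd209f. Fibroblast-like cells, with 15.8 CPM of Ptprc (CD45) and 10.3 CPM of Itgam (CD11b) in HFD, made up 18.4% of HFD cells and 2.43% of control cells.

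Over all cells of a sample, the 5 genes Ccl2, Ccl7, Ccl12, Ccl24 and Ccl6 fell in HFD, none of the 9 rose, and 4 did not pass the test. Ccl24, Ccl2 and Ccl7 moved most, and in each of them the HFD samples lay below all control samples. Levels are UMI counts scaled to a common total of the summed cells (CPM), and changes are log2 fold changes from edgeR's quasi-likelihood test with Benjamini-Hochberg adjustment over all genes tested. In a sum over all cells, fewer cells of a type and less RNA per cell cannot be told apart.

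**Figure D1:**
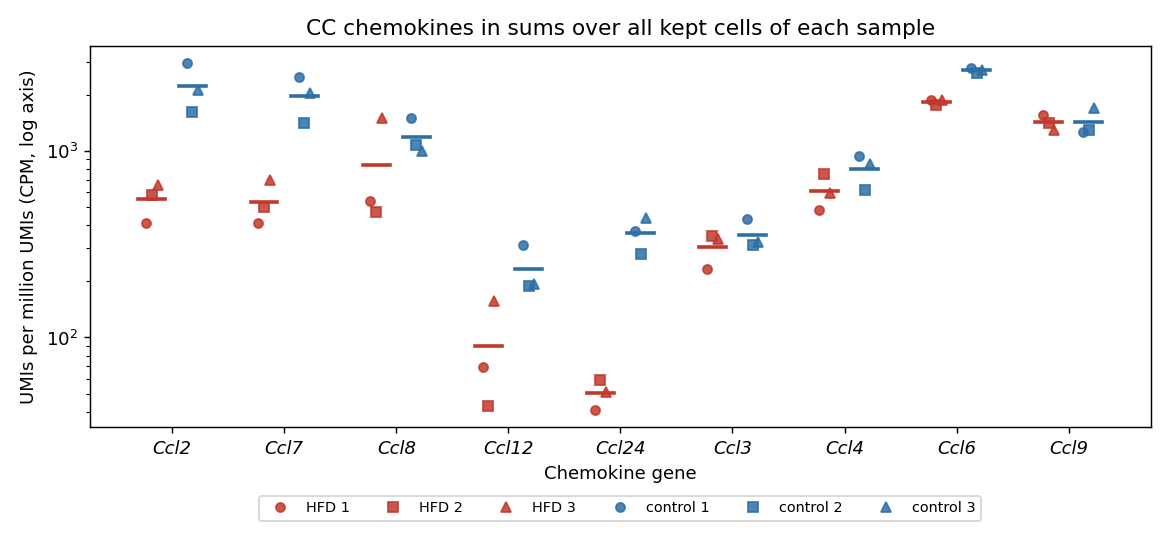
Level of each of the 9 chemokine genes in sums over all kept cells of a sample, in CPM on a log axis. Each symbol is 1 sample, HFD in red left of control in blue, and the bar is the mean of 3 samples. The HFD samples lie below every control sample for Ccl2, Ccl7, Ccl12, Ccl24 and Ccl6, and overlap them for Ccl8, Ccl3, Ccl4 and Ccl9.

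Ccl2, the main Ccr2 ligand, stood at 409, 581 and 659.6 CPM in HFD samples 1, 2 and 3 and at 2943, 1614 and 2110.5 CPM in control samples 1, 2 and 3. Its log2 fold change was -2.16 ± 0.24 (SE, adjusted p = 4.14e-04). Ccl7, its neighbour on the chromosome and a second Ccr2 ligand, was at 411, 498 and 694 CPM in HFD and 2484, 1405 and 2036 CPM in control, a log2 fold change of -2.03 ± 0.24 (SE, adjusted p = 5.48e-04). Both genes were highest in control sample 1 and lowest in HFD sample 1, and the diets did not overlap. Ccl24 measured 40.8, 59.4 and 50.8 CPM in HFD and 371, 280.3 and 436 CPM in control, and its log2 fold change of -2.99 ± 0.18 (SE, adjusted p = 8.93e-05) was the largest of the 9. Ccl12, the third Ccr2 ligand, measured 69.2, 42.9 and 157 CPM in HFD and 313, 188 and 194 CPM in control, with HFD sample 3 closest to the controls. Its log2 fold change of -1.51 ± 0.42 (SE, adjusted p = 0.0225) became -2.19 (adjusted p = 0.00264) without HFD sample 3. The Ccl12 call was lost without control sample 1 (adjusted p = 0.066), HFD sample 1 (adjusted p = 0.0914) or HFD sample 2 (adjusted p = 0.0573).

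Ccl6, a Ccr1 ligand found in most cells, changed less but with little spread: 1876, 1766 and 1864 CPM in HFD and 2787, 2600.1 and 2713 CPM in control, a log2 fold change of -0.70 ± 0.08 (SE, adjusted p = 4.53e-04). Ccl9, the other Ccr1 ligand of rodents, overlapped between diets at 1551, 1416 and 1294 CPM in HFD and 1257, 1296 and 1703 CPM in control, with a log2 difference of -0.14 ± 0.12 (SE, adjusted p = 0.409) that became 0.00302 without control sample 3. Ccl8 reached 1498 CPM in HFD sample 3, as high as control sample 1 at 1499.9 CPM, while HFD samples 1 and 2 held 539 and 472 CPM and control samples 2 and 3 held 1070.3 and 994 CPM. The Ccl8 difference did not pass the test at -0.65 ± 0.40 (SE, adjusted p = 0.253), and without HFD sample 3 it was -1.39 (adjusted p = 0.00333). Ccl3 measured 234, 348 and 335 CPM in HFD and 431, 313 and 323 CPM in control, a log2 difference of -0.37 ± 0.18 (SE, adjusted p = 0.153). Ccl4 measured 480.4, 752 and 596 CPM in HFD and 935, 614 and 849 CPM in control, a log2 difference of -0.53 ± 0.19 (SE, adjusted p = 0.0579), and passed without control sample 2 (adjusted p = 0.0236) or HFD sample 2 (adjusted p = 0.0369). Among all 10450 genes tested, 15.2% were called higher and 17.2% lower in HFD, beside 0 and 5 of the 9 chemokines. The median log2 fold change was -0.70 over the 9 and -0.02 over all genes.

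The macrophage-like cells together (resident, lipid-associated, other and serous cavity macrophage-like, 647 HFD and 349 control cells) showed the same 5 falls and also a fall of Ccl8. Of 8420 genes tested, 7.35% were called higher and 10.9% lower in HFD, beside 0 and 6 of the 9. Ccl2 averaged 603 ± 168 CPM in HFD and 4079 ± 1909 CPM in control (SD, 3 samples a group), a log2 fold change of -2.87 ± 0.34 (SE, adjusted p = 0.00116). Ccl7 averaged 503 ± 225 CPM in HFD and 3557 ± 1225 CPM in control (log2 fold change -2.93 ± 0.36 SE, adjusted p = 0.00136), and Ccl24 54.4 ± 21.0 CPM in HFD and 584 ± 95.8 CPM in control (log2 fold change -3.54 ± 0.29 SE, adjusted p = 2.20e-04). Ccl12 averaged 99.2 ± 57.0 CPM in HFD and 414 ± 106 CPM in control (log2 fold change -2.17 ± 0.37 SE, adjusted p = 0.00551), and Ccl8 822 ± 487 CPM in HFD and 2452 ± 747 CPM in control (log2 fold change -1.68 ± 0.38 SE, adjusted p = 0.0172). The Ccl8 fall was -2.28 (adjusted p = 0.00857) without HFD sample 3. It missed the threshold without control sample 2, HFD sample 1 or HFD sample 2 (adjusted p = 0.0584, 0.065 and 0.0735) and at the lower clustering resolution (adjusted p = 0.0706). Ccl6 had a log2 fold change of -0.53 ± 0.11 (SE, adjusted p = 0.0112), a call lost without HFD sample 1 or HFD sample 2 (adjusted p = 0.067 and 0.0604). Ccl3, Ccl4 and Ccl9 did not pass, with log2 differences of -0.89, -0.34 and 0.09. Ccl3 passed without control sample 3 at -1.09 (adjusted p = 0.012), and Ccl4 turned to 0.08 and Ccl9 to -0.05 without control sample 1. Finer clusters (resolution 2.0) gave -3.53 for Ccl2, -3.65 for Ccl7 and -4.45 for Ccl24. Adding the unnamed clusters gave -2.28 for Ccl7, -1.50 for Ccl12 and -1.02 for Ccl8. Because the makeup of these sums differs between diets, the macrophage classes were then taken one at a time.

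The barcodes shared between samples bear on these values. With every barcode kept in every sample that lists it, the log2 fold changes over all cells were -1.68 for Ccl2, -1.60 for Ccl7, -1.22 for Ccl12, -2.04 for Ccl24 and -0.52 for Ccl6. With only the 1794 cells whose second entry held at most 0.2 of the UMIs of the largest, they were -2.37, -2.29, -1.76, -3.16 and -0.62 for the same genes. All 5 stayed called in both, and Ccl4 passed in both at -0.49 (adjusted p = 0.0107) and -0.74 (adjusted p = 0.0076), while Ccl3 passed with all entries at -0.38 (adjusted p = 0.0403). In macrophage-like sums with all entries, Ccl2 was -2.18, Ccl7 -2.24 and Ccl24 -2.38. Among resident macrophage-like cells Ccl8 was 0.74 (adjusted p = 0.00449) with all entries and 1.11 (adjusted p = 0.00259) in the 1794 cells, and Ccl2 -1.14 (adjusted p = 0.00398) and -1.24 (adjusted p = 0.00645). In monocyte-like cells with all entries Ccl2 was -1.11 (adjusted p = 0.00178), Ccl7 -1.32 (adjusted p = 0.00178) and Ccl6 -0.41 (adjusted p = 0.198).

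In both diets resident macrophage-like cells held larger shares of the Ccl2, Ccl7, Ccl8, Ccl12 and Ccl24 UMIs than of the cells. In control they made up 25.9% of cells and held 65.4% of all Ccl8 UMIs, 58.1% of Ccl2, 58.0% of Ccl7, 54.9% of Ccl12 and 47.3% of Ccl24. In HFD, where they were 3.81% of cells, they still held 33.8% of Ccl8, 31.2% of Ccl12, 27.2% of Ccl24, 22.4% of Ccl7 and 16.9% of Ccl2. The other macrophage-like cells, 36.5% of HFD cells, held 54.3% of the Ccl3 and 52.6% of the Ccl4 UMIs of the HFD samples. They also held 42.3% of Ccl2, 29.7% of Ccl7 and 32.1% of Ccl24, each more than the resident cells, and 28.9% of Ccl12 and 19.2% of Ccl8, each less than the resident cells. Lipid-associated macrophage-like cells, 16.0% of HFD cells, held 37.3% of Ccl9 and 27.6% of Ccl6, against 4.17% to 8.75% of each of the other 7. Their median depth was 16530 UMIs over both diets, beside 9735 in all HFD cells. Their share of all HFD UMIs was therefore larger than their share of cells. Their mean Ccl6 in HFD, 1985 CPM, was near that of other macrophage-like cells (2007 CPM) and below that of resident cells (5799 CPM). Their mean Ccl9, 2133 CPM, was the highest of the classes compared in HFD.

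**Figure D2:**
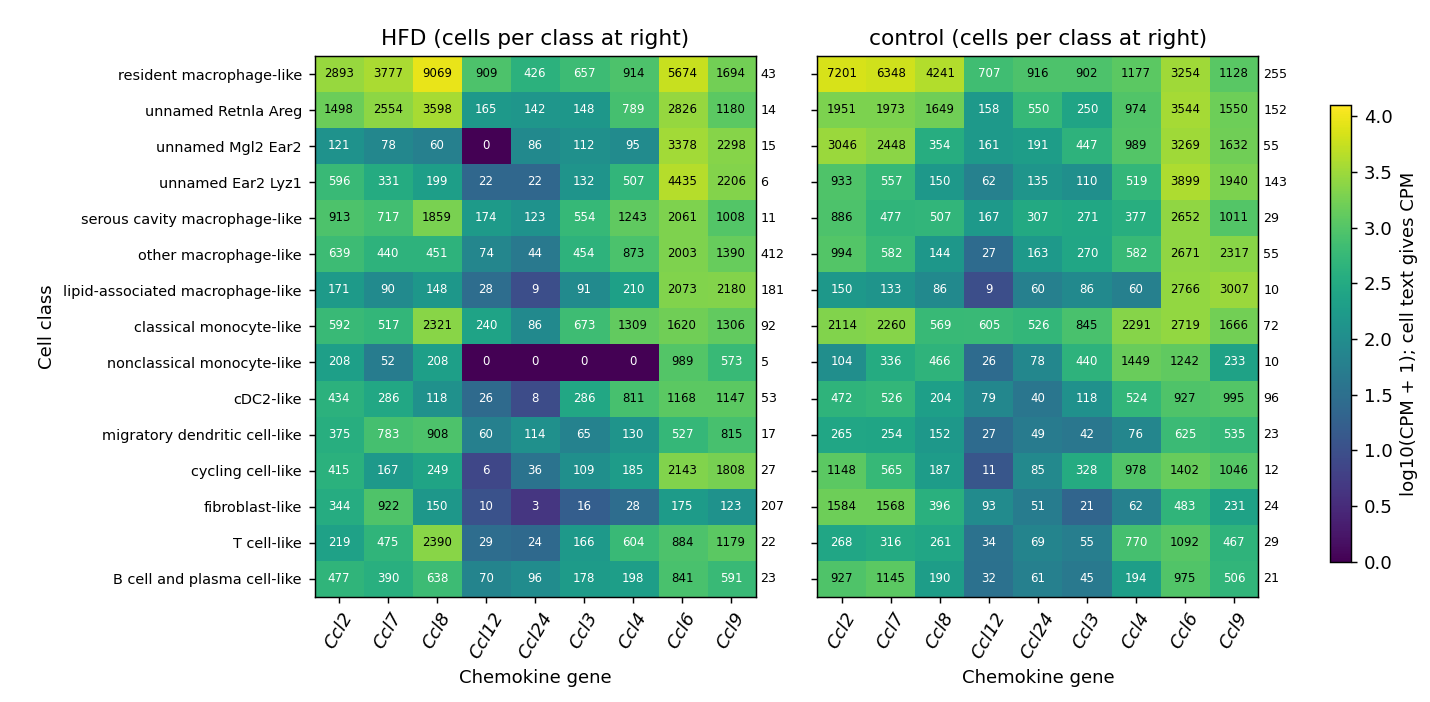
Level of each chemokine gene in each cell class, pooled over the HFD samples (left) and over the control samples (right). Colour gives log10(CPM + 1), the number in each cell the CPM and the number at the right edge the cells of the class. The resident macrophage-like row is highest for Ccl2, Ccl7, Ccl8, Ccl12 and Ccl24 in both diets, while Ccl6 and Ccl9 are spread over most myeloid rows.

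Against resident macrophage-like cells of the same HFD samples, lipid-associated macrophage-like cells were lower in 8 of the 9 chemokines and not called for Ccl9. The background was 9.83% of 4447 genes called higher and 13.6% lower, beside 0 and 8 of the 9. Ccl8 was at 113, 235 and 146 CPM in the lipid-associated cells of HFD samples 1, 2 and 3 and at 7388, 8101 and 11962 CPM in their resident cells (log2 difference -5.94 ± 0.23 SE, adjusted p = 1.94e-13). Ccl7 was at 86.7, 100.3 and 86.5 CPM in lipid-associated and 2097, 3552 and 5941 CPM in resident cells (log2 difference -5.37 ± 0.24 SE, adjusted p = 1.33e-12), and Ccl2 at 151, 92.1 and 267 CPM in lipid-associated and 1703, 3664 and 3518 CPM in resident cells (log2 difference -4.21 ± 0.26 SE, adjusted p = 1.16e-10). In these 3 genes every resident sum lay above every lipid-associated sum, by several fold. Ccl24 was at 11.1, 9.62 and 4.22 CPM in lipid-associated and 194, 609 and 515 CPM in resident cells (log2 difference -5.52 ± 0.34 SE, adjusted p = 1.16e-10), which became -6.45 without HFD sample 1. Ccl12 was at 1.75, 8.24 and 91.8 CPM in lipid-associated and 1277, 104 and 1269 CPM in resident cells, and its log2 difference of -5.30 ± 0.53 (SE, adjusted p = 1.72e-07) moved to -3.87 without HFD sample 1 and -7.72 without HFD sample 3. The differences were smaller for Ccl3 at -2.88 ± 0.19, Ccl4 at -2.14 ± 0.18 and Ccl6 at -1.60 ± 0.22 (SE, largest adjusted p = 1.01e-05). Ccl9 was at 2304, 2007 and 2086 CPM in lipid-associated and 1096, 2467 and 1632 CPM in resident cells, which overlap (log2 difference 0.26 ± 0.20 SE, adjusted p = 0.38). It passed without HFD sample 2 at 0.68 (adjusted p = 0.049), and without HFD sample 1 it was -0.08. The resident sums of the HFD samples hold only 14, 12 and 17 cells, below the planned minimum of 20, and a minimum of 10 was set for them after the data were seen.

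**Figure D3:**
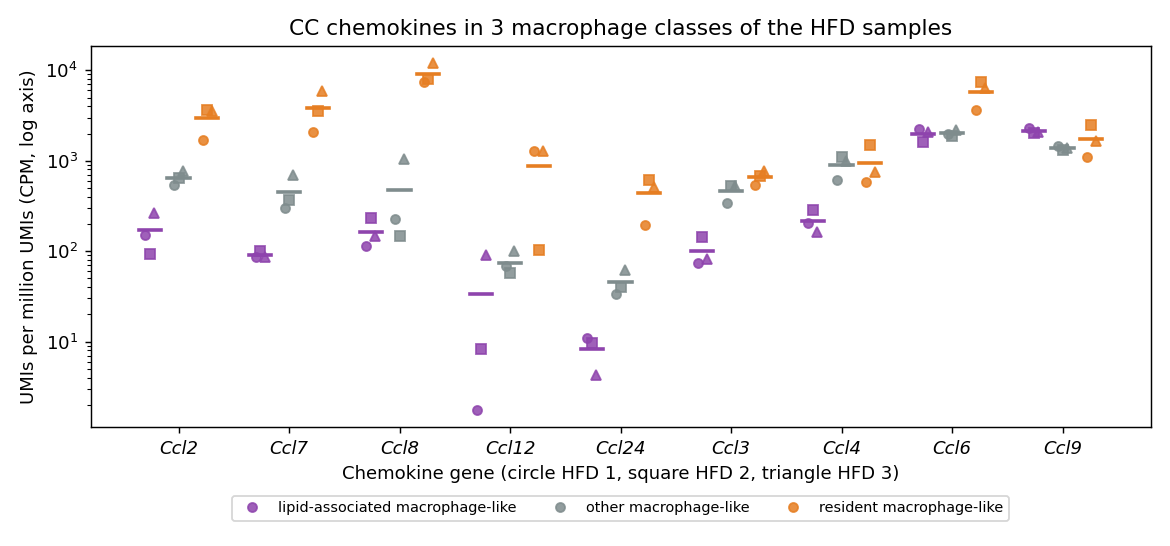
Level of each chemokine gene in 3 macrophage classes of the HFD samples, in CPM on a log axis. Symbols are HFD samples 1 (circle), 2 (square) and 3 (triangle), and bars are means of 3 samples. Lipid-associated sums lie lowest for Ccl2, Ccl7, Ccl12, Ccl24, Ccl3 and Ccl4 in all 3 samples, and for Ccl9 they lie above the other macrophage-like sums in all 3.

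Ccl9 was the 1 chemokine higher in lipid-associated than in other macrophage-like cells of the same HFD samples. Of 7820 genes, 10.9% were called higher and 11.8% lower in lipid-associated cells, beside 1 and 7 of the 9. Ccl9 stood at 2304, 2007 and 2086 CPM in lipid-associated and 1450.2, 1315 and 1386 CPM in other macrophage-like cells, without overlap, a log2 difference of 0.57 ± 0.07 (SE, adjusted p = 2.31e-06). Ccl6 differed by -0.08 ± 0.08 (SE, adjusted p = 0.542), with 2264, 1595 and 2095 CPM in lipid-associated and 1954, 1887 and 2179 CPM in other macrophage-like cells. It passed without HFD sample 1 at -0.22 (adjusted p = 0.0447) and was 0.02 without HFD sample 2. The inflammatory chemokines Ccl3 and Ccl4 were lower in the lipid-associated cells. Ccl3 stood at 74.5, 143 and 82.3 CPM in lipid-associated and 339.8, 527 and 532 CPM in other macrophage-like cells (log2 difference -2.29 ± 0.12 SE, adjusted p = 2.16e-11), and Ccl4 at 206, 282 and 162 CPM in lipid-associated and 606, 1113 and 984 CPM in other macrophage-like cells (log2 difference -2.07 ± 0.13 SE, adjusted p = 2.27e-10). Ccl2 and Ccl7 were lower by similar amounts, with log2 differences of -2.01 ± 0.14 and -2.27 ± 0.16 (SE, adjusted p = 1.29e-09 and 8.46e-10). Ccl24 was lower by a log2 difference of -2.34 ± 0.29 (SE, adjusted p = 2.96e-06), which was -3.03 without HFD sample 1 and lost its call at the lower resolution at -0.64 (adjusted p = 0.217). Ccl8 and Ccl12 overlapped between the classes. The Ccl8 difference of -1.22 ± 0.34 (SE, adjusted p = 0.0122) rested on HFD sample 3, with 146 CPM in lipid-associated and 1043 CPM in other macrophage-like cells, and was -0.28 (adjusted p = 0.115) without that sample and -1.999 without HFD sample 2. The Ccl12 difference of -1.51 ± 0.39 (SE, adjusted p = 0.00781) did not pass in DESeq2 (adjusted p = 0.184) and ranged from -4.11 without HFD sample 3 to -0.76 without HFD sample 1.

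Resident cells were higher than other macrophage-like cells in 7 of the 9 chemokines, in 5 samples with at least 10 cells of both classes (HFD 1, 2 and 3, control 2 and 3). Here 10.5% of 3775 genes were called higher and 9.01% lower, beside 7 and 0 of the 9. Ccl8 differed most, with 7388, 8101 and 11962 CPM in resident and 227, 148 and 1043 CPM in other macrophage-like cells of HFD samples 1, 2 and 3, and 4276 and 3785 CPM in resident and 135 and 139 CPM in other macrophage-like cells of control samples 2 and 3. The lowest resident sum exceeded the highest other sum, and the log2 difference was 4.84 ± 0.26 (SE, adjusted p = 1.33e-08). Ccl12 followed at 3.69 ± 0.39 (SE, adjusted p = 1.02e-05), Ccl7 at 3.09 ± 0.19 (SE, adjusted p = 4.97e-08) and Ccl24 at 3.04 ± 0.21 (SE, adjusted p = 2.33e-07), also without overlap. Ccl2 was higher by 2.21 ± 0.24 (SE, adjusted p = 1.56e-05), with overlap, since resident cells of HFD sample 1 held 1703 CPM and other macrophage-like cells of control sample 2 held 2018 CPM. Ccl6 at 1.02 ± 0.24 and Ccl3 at 0.88 ± 0.17 (SE, adjusted p = 0.00694 and 0.00174) were higher by less, with overlap for Ccl6 and without it for Ccl3. Ccl4 and Ccl9 were not called, at 0.31 ± 0.16 (SE, adjusted p = 0.223) and -0.26 ± 0.25 (SE, adjusted p = 0.541), and Ccl9 was 0.02 without control sample 2.

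Outside the named macrophage classes, 1 unnamed cluster, led by Retnla and Areg and found almost wholly in control (14 HFD and 152 control cells), carried 23.0% of the Ccl24 and 20.6% of the Ccl8 UMIs of the control samples. Its levels in control samples 1, 2 and 3 were 620.1, 473 and 481 CPM for Ccl24, 1767, 2146 and 1220.4 CPM for Ccl8 and 1983, 1348 and 2206 CPM for Ccl2. These lay below the resident cells of the same samples for all 3 genes, and all 17 resident markers were higher in that cluster than in the remaining cells. A second unnamed cluster, led by Ear2 and Lyz1 (6 HFD and 143 control cells), had 4374, 4318 and 2942 CPM of Ccl6 in control, above the resident cells of control samples 1 and 2 and below those of control sample 3. The remaining unnamed cluster, led by Mgl2 and Ear2 (15 HFD and 55 control cells), averaged 3172 CPM of Ccl2 and 2509 CPM of Ccl7 in control. Of the classes compared in control, only the resident cells had higher means of these 2 genes. The Retnla and Areg cluster averaged 1845.5 and 1795 CPM. Classical monocyte-like cells, led by Chil3, Ly6c2 and Plac8, had the highest mean Ccl4 of the classes compared in each diet, with 2383, 1052 and 929 CPM in HFD and 2379, 2049 and 2585 CPM in control. Their Ccl12 sums overlapped those of resident cells. In control they spanned 350 to 1086 CPM, beside 626 to 819 CPM in resident cells, and in HFD 19.0 to 377 CPM, beside 104 to 1277 CPM. Fibroblast-like cells carried Ccl7, with 1021, 657 and 1039 CPM in HFD samples 1, 2 and 3, and less Ccl2, with 233, 172 and 625 CPM. As 18.4% of HFD cells, they held 18.4% of the Ccl7 UMIs of the HFD samples, and leaving them out of the whole-sample sums changed no call among the 9 genes. Their median depth was 6823 UMIs over both diets, beside 9735 in all HFD cells, and their share of all HFD UMIs was below their share of cells. Of the classes compared in HFD, only resident cells had a higher mean Ccl7, 3864 CPM beside 905 CPM in fibroblast-like cells.

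Lymphocyte-like cells, which are not known as a main source of Ccl2, Ccl7, Ccl8 or Ccl24, give the level of each signal in cells of another type. Ccl2 was at 244, 588 and 378 CPM in T, B and plasma cell-like cells together of HFD samples 1, 2 and 3 (16, 9 and 20 cells) and at 1182, 166 and 197 CPM in those of control samples 1, 2 and 3 (19, 17 and 14 cells). Ccl7 was at 153, 58.8 and 928 CPM in HFD and 1414, 281 and 179 CPM in control. Ccl8 was at 388, 139.6 and 2975 CPM in HFD and 207, 288 and 71.5 CPM in control, so HFD sample 3, the sample with the high Ccl8 sum, was also high in cells of another type. In the T cell-like class 10% of the cells held 95.2% of the Ccl8 UMIs, whereas in resident cells they held 47.5%. Levels in lipid-associated cells were below those in lymphocyte-like cells of the same diet for Ccl2, Ccl7, Ccl8, Ccl12, Ccl24, Ccl3 and Ccl4 when pooled over HFD samples. For Ccl7 and Ccl8 the order was the reverse in HFD sample 2, where lipid-associated cells held 100.3 and 235 CPM. In HFD samples 1 and 3 it was as in the pool. The part of free RNA and of mixed droplets in these values was not tested.

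Shares of cells with a UMI, compared after each cell was thinned to 2000 UMIs, separated the same groups of genes. In resident cells of the HFD samples (43 with enough UMIs) the share was 93.0% for Ccl8, 72.1% for Ccl2, 58.1% for Ccl7, 46.5% for Ccl24 and 25.6% for Ccl12, and in those of the control samples (247) 84.6%, 86.2%, 79.8%, 71.7% and 30.8%. In lipid-associated cells of the HFD samples (181) the shares of these genes were 16.6%, 12.7%, 13.3%, 4.42% and 1.66%, and in lymphocyte-like cells of the same samples (45) 28.9%, 17.8%, 24.4%, 2.22% and 4.44%. The lipid-associated shares lay below the lymphocyte-like ones for Ccl8, Ccl2, Ccl7 and Ccl12 and above for Ccl24, there with overlapping exact binomial intervals, so for 4 of these 5 genes they did not exceed the level in cells of another type. Ccl9 was found in 92.3% and Ccl6 in 90.1% of these lipid-associated cells, against 51.1% and 66.7% of the lymphocyte-like cells. Ccl3 was found in 12.7% and Ccl4 in 16.0% of lipid-associated cells, and in 13.3% and 28.9% of lymphocyte-like cells, where T cells are a known source of both. Other macrophage-like cells of the HFD samples (412) had 35.9% for Ccl2, 31.3% for Ccl3 and 30.8% for Ccl4. For Ccl7 and Ccl8 (22.6% and 24.0%) they stayed below the lymphocyte-like shares, and for Ccl24 (5.58%) above, each with overlapping exact binomial intervals. Median depths before thinning, over both diets, were 16530 UMIs in lipid-associated, 10135 in other, 6128.5 in resident and 5646 in lymphocyte-like cells.

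Within resident macrophage-like cells, Ccl8 rose and Ccl2 fell in HFD, while the other 7 chemokines did not pass the test. The background was 1.38% of 2834 genes called higher and 2.26% lower, beside 1 and 1 of the 9. Ccl8 was at 7388, 8101 and 11962 CPM in HFD samples 1, 2 and 3 (14, 12 and 17 cells) and at 4498, 4276 and 3785 CPM in control samples 1, 2 and 3 (117, 51 and 87 cells). Every HFD value lay above every control value, and the log2 fold change was 1.04 ± 0.19 (SE, adjusted p = 0.00938). It was 0.78 (adjusted p = 0.0372) without HFD sample 3, the sample with high Ccl8 in lymphocyte-like cells. Ccl2 was at 1703, 3664 and 3518 CPM in HFD and 8635, 4251 and 6686 CPM in control, a log2 fold change of -1.23 ± 0.28 (SE, adjusted p = 0.0325). That call was lost without control sample 1 or 3 (adjusted p = 0.12 and 0.081) and without HFD sample 1 or 3 (adjusted p = 0.0935 and 0.0905). Markers of the classes also differed between the diets within these cells. The 16 lipid-associated markers together held 7469 to 8851 CPM in the HFD samples, against 4222 to 4873 CPM in the control samples, and 10 of the 16 had every HFD value above every control value. Among them, Trem2 was at 707, 505 and 486 CPM in HFD samples 1, 2 and 3 and at 131, 182 and 195 CPM in control samples 1, 2 and 3, and Gpnmb at 194, 119 and 102 CPM in HFD and 1.2, 22 and 75.2 CPM in control. The 17 resident markers together held 12949 to 15949 CPM in HFD and 15833 to 18459 CPM in control, ranges that overlap. Of the 17, 5 had every HFD value below every control value, 1 had every HFD value above, and the rest overlapped. Cd163, among the 5, was at 288, 96.6 and 72.5 CPM in HFD and 555, 393 and 545 CPM in control. The share of all genes with such separation between sums of 3 and 3 samples was not counted, so the marker counts have no background. The part of the class markers in the Ccl8 and Ccl2 differences was not tested.

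Among the uncalled genes of resident cells, Ccl24 measured 194, 609 and 515 CPM in HFD and 834, 638 and 1236 CPM in control without overlap. Its log2 difference of -1.15 ± 0.32 (SE, adjusted p = 0.0639) passed without control sample 2 (adjusted p = 0.0403) and in DESeq2 (adjusted p = 0.0359). Ccl7 measured 2097, 3552 and 5941 CPM in HFD and 6966, 4565 and 6458 CPM in control, a log2 difference of -0.72 ± 0.29 (SE, adjusted p = 0.209). Ccl6 measured 3594, 7469 and 6333 CPM in HFD and 3114, 2792 and 3789 CPM in control, a log2 difference of 0.76 ± 0.23 (SE, adjusted p = 0.0856) that passed without HFD sample 1 at 1.01 (adjusted p = 0.0124). Ccl12 in HFD sample 2 was at 104 CPM, far below HFD samples 1 and 3 at 1277 and 1269 CPM, and without that sample the log2 difference of 0.25 became 0.75 (adjusted p = 0.0401). Ccl3, Ccl4 and Ccl9 had log2 differences of -0.47 ± 0.19, -0.26 ± 0.32 and 0.55 ± 0.23 (SE). Ccl4 turned to 0.13 without control sample 1 and to 0.0047 without HFD sample 1.

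**Figure D4:**
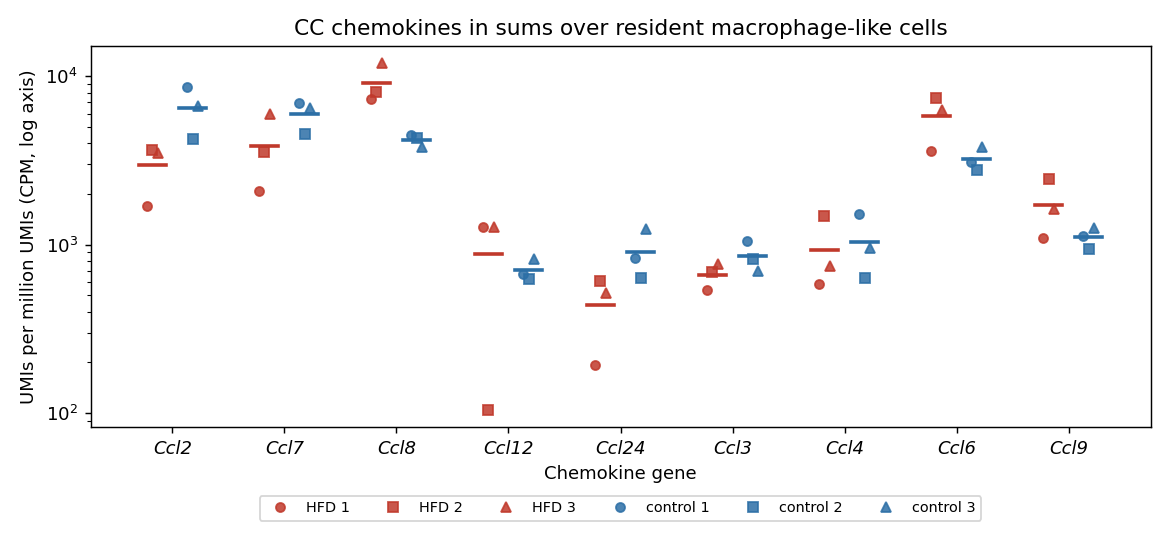
Level of each chemokine gene in sums over resident macrophage-like cells, in CPM on a log axis. Each symbol is 1 sample, HFD in red left of control in blue, and bars are means of 3 samples. The HFD sums hold 14, 12 and 17 cells and the control sums 117, 51 and 87. Ccl8 lies higher and Ccl2 and Ccl24 lie lower in all HFD samples.

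In classical monocyte-like cells (92 HFD and 72 control cells), Ccl2, Ccl7 and Ccl6 fell in HFD. They were 3 of the 9 called lower and none higher, where 0.427% of 2811 genes were called higher and 0.32% lower. Ccl2 was at 444, 552 and 669 CPM in HFD and 2471, 1921 and 1944 CPM in control, without overlap (log2 fold change -1.95 ± 0.19 SE, adjusted p = 0.00273). Ccl7 was at 169.7, 585 and 645 CPM in HFD and 2476, 1732 and 2864 CPM in control, also without overlap (log2 fold change -2.35 ± 0.39 SE, adjusted p = 0.031). The Ccl7 call was lost without control sample 2 or 3 or HFD sample 2 or 3 (adjusted p = 0.0501, 0.0957, 0.0968 and 0.0966). Ccl6 had a log2 fold change of -0.72 ± 0.14 (SE, adjusted p = 0.0485), with 1866, 1727 and 1478 CPM in HFD and 2522, 2768 and 2909 CPM in control. That call was lost without control sample 2 or 3 (adjusted p = 0.209 and 0.151) or any 1 of the HFD samples (adjusted p = 0.0817, 0.137 and 0.196). Ccl8 varied among the monocyte-like sums, with 1567, 147 and 3359 CPM in HFD and 1099, 158 and 531 CPM in control, and 10% of the cells held 87.4% of its UMIs. Ccl24 measured 188, 138 and 24.9 CPM in HFD and 245, 407 and 1127 CPM in control, and its log2 difference of -2.46 ± 0.69 (SE, adjusted p = 0.175) passed without control sample 1 (adjusted p = 0.0328). Ccl4 had a log2 difference of -0.70 ± 0.32 (SE, adjusted p = 0.375), which passed without HFD sample 1 at -1.29 (adjusted p = 0.0326).

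In cDC2-like cells, dendritic cells led by Klrd1, H2-Oa and Cd209a (53 HFD and 96 control cells), none of the 7 chemokines tested was called, where 3.86% of 2433 genes were called higher and 2.59% lower. At an unadjusted p below 0.05, 2 of the 7 passed, beside 486 of the 2433 genes, so the members' share was near the background. The 2 were Ccl3, with 281, 311 and 269.8 CPM in HFD and 113, 51.8 and 207 CPM in control (log2 difference 1.17 ± 0.34 SE, adjusted p = 0.0633), and Ccl8 (log2 difference -0.88 ± 0.38 SE, adjusted p = 0.221). Ccl3 passed in DESeq2 (adjusted p = 0.033) and without control sample 3 (adjusted p = 0.00999), and it was the 1 member called by DESeq2. Whether the diet difference itself differed between classes was tested with an interaction term. None of the 9 passed for resident against cDC2-like or against monocyte-like cells, where 1.02% and 0.113% of 3536 genes did. For Ccl8 the diet difference in resident minus that in cDC2-like cells was 2.24 ± 0.82 (SE, adjusted p = 0.277), and minus that in monocyte-like cells -0.08 ± 0.70 (SE, adjusted p = 0.999). For Ccl6 the difference between resident and monocyte-like cells was 1.501 ± 0.31 (SE, adjusted p = 0.0598), the closest of the 18 to the threshold.

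Within the resident macrophage-like class, Ccl2 and Ccl7 were high in the same cells and Ccl8 was not tied to them. Over the 290 thinned cells the rank correlation of Ccl2 with Ccl7 was 0.78, and within control samples 1, 2 and 3 (116, 47 and 84 cells) it ranged over 0.73 to 0.81. Ccl2 with Ccl8 gave -0.07 over all cells and -0.02 to 0.01 within the control samples, and Ccl7 with Ccl8 gave 0.02. Of the 290 cells, 200 had UMIs of both Ccl2 and Ccl7, 44 of Ccl2 alone, 22 of Ccl7 alone and 24 of neither. Ccl12 and Ccl3 followed Ccl2 more loosely, at 0.34 and 0.45, Ccl6 went with Ccl9 at 0.37, and Ccl24 stayed between -0.15 and 0.18 with every other member. Cells share their libraries, so these values describe the cells and carry no test.

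**Figure D5:**
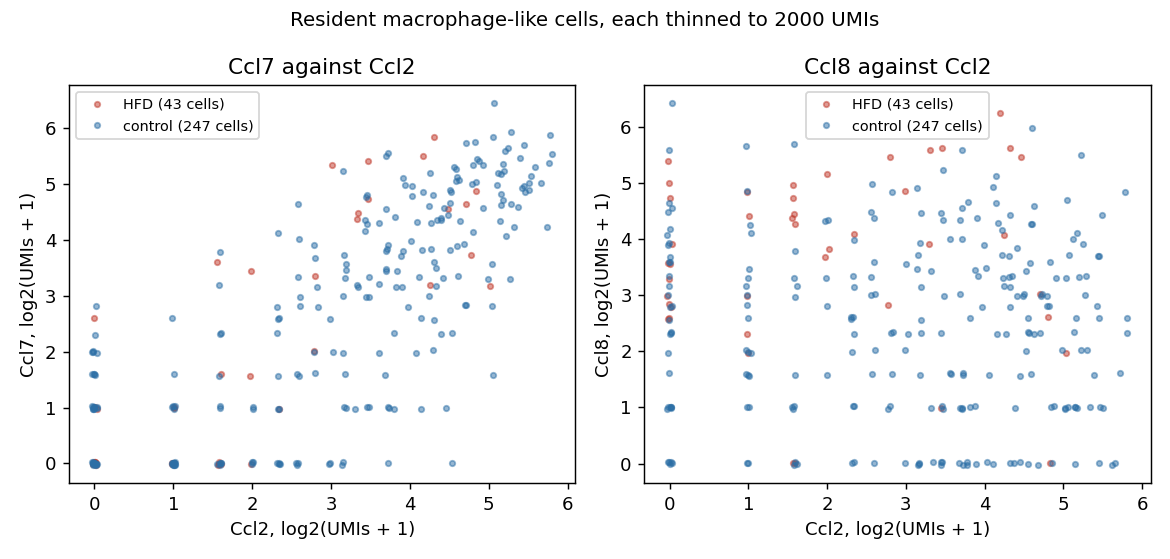
Resident macrophage-like cells, each thinned to 2000 UMIs, with Ccl7 (left) and Ccl8 (right) against Ccl2 as log2(UMIs + 1). Each point is 1 cell, moved by a small random step so that equal counts can be seen, HFD in red (43 cells) and control in blue (247 cells). Ccl7 climbs with Ccl2, and Ccl8 shows no such climb.

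The same resident cells differed in immediate early and digestion response genes, 18 genes such as Fos, Jun, Egr1 and Hspa1a that are switched on within minutes of stress and also during warm tissue digestion. The rank correlation with the summed share of these 18 genes over the 290 cells was 0.49 for Ccl2, 0.37 for Ccl7, 0.22 for Ccl3, 0.20 for Ccl12, 0.10 for Ccl24 and -0.09 for Ccl8. In resident cells the 18 genes summed to 19547, 16796 and 19564 CPM in HFD samples 1, 2 and 3 and to 23552, 17468 and 23370.2 CPM in control samples 1, 2 and 3. In lipid-associated cells of the HFD samples they summed to 7773, 8279.7 and 8352 CPM. Their part in the Ccl2 and Ccl7 results was not tested.

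Over 29 sums of sample and class with at least 20 cells, in 9 classes, the genes whose log2(CPM + 1) was most like that of each chemokine were sought among 4666 others. The values share libraries and classes and are descriptions. The sums include fibroblast-like sums of the 3 HFD samples, with means of 16.0, 28.4, 176 and 123 CPM for Ccl3, Ccl4, Ccl6 and Ccl9. For these genes they were the lowest of the classes compared in HFD, and their part in the correlations was not tested. For Ccl2 they were F13a1 (r = 0.905), Cbr2 (r = 0.872) and Ier5 (r = 0.868), for Ccl24 F13a1 (r = 0.909), Wsb1 (r = 0.903) and Kctd12 (r = 0.877) and for Ccl7 Lifr (r = 0.836), Ier3 (r = 0.834) and Hspa1a (r = 0.817). F13a1, a clotting factor subunit made by resident macrophages and monocytes, led for both Ccl2 and Ccl24. For Ccl8 they were Parp14 (r = 0.798), H2-K1 (r = 0.795) and Lyve1 (r = 0.780), and for Ccl12 Trim30a (r = 0.808), Cited2 (r = 0.796) and Ctsc (r = 0.786). Lyve1, the hyaluronan receptor of resident macrophages, stands in the Ccl8 list. For Ccl3 they were Aif1 (r = 0.940), Ctsc (r = 0.925) and Arrb2 (r = 0.917), for Ccl4 Clec4a1 (r = 0.923), Lst1 (r = 0.921) and Epsti1 (r = 0.9203), for Ccl6 Sdc3 (r = 0.943), Dok2 (r = 0.931) and Ncf1 (r = 0.923) and for Ccl9 Dok2 (r = 0.970), Gpx1 (r = 0.966) and Tyrobp (r = 0.954). Dok2, an adaptor of haematopoietic cells, and Tyrobp, the signalling partner of Trem2, are broad myeloid genes. Among the 9 themselves the closest pairs were Ccl3 with Ccl4 (r = 0.93), Ccl6 with Ccl9 (r = 0.90) and Ccl2 with Ccl7 (r = 0.88), and Ccl7 with Ccl9 was lowest (r = -0.15). Even so, Ccl6 and Ccl9 parted between macrophage classes of the HFD samples. Ccl6 averaged 5799 CPM in resident and 1985 CPM in lipid-associated cells, and Ccl9 averaged 1732 and 2133 CPM.

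The closest pairs named above are also neighbours in the genome. In the RefSeq annotation of GRCm38.p6 the protein-coding genes Ccl2, Ccl7, Ccl11, Ccl12 and Ccl8 follow each other on chromosome 11. Further along, Ccl9, Ccl6, Ccl3 and Ccl4 follow each other after Ccl5, and Ccl24 lies on chromosome 5. All 4 members of the first block were higher in resident than in other macrophage-like cells by a log2 difference of at least 2.21, whereas the 4 members of the second block had differences between -0.26 and 1.02. Members of the family share stretches of sequence, and the labels do not say how reads matching several of them were counted.

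The 250 bases before the start of 5 of the genes (Ccl12, Ccl8, Ccl9, Ccl6 and Ccl3) were matched in RefSeq sequence of GRCm38.p6. Those of Ccl12 and Ccl8, adjacent genes with their highest class means in resident cells, and of Ccl9, without that, are shown 5′ to 3′ on the strand of the gene. Capitals mark matches, on either strand, to TATAAA (the core promoter box that binds TBP) or to the letters searched for AP-1 or NF-kB. For AP-1, a dimer of Fos and Jun family proteins, TGANTCA was searched. It is looser than the AP-1 consensus, which has C or G at the middle base. For NF-kB the search was for GGG and TTCC with any 3 bases between them. Ccl12 lies on the plus strand at chr11:82101595-82101844, Ccl8 on the plus strand at chr11:82114935-82115184 and Ccl9 on the minus strand at chr11:83578637-83578886.
Ccl12: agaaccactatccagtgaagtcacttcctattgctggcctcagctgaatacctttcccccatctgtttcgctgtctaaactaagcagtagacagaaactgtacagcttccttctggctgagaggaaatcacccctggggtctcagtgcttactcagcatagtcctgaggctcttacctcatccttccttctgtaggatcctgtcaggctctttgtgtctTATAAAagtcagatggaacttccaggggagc
Ccl8: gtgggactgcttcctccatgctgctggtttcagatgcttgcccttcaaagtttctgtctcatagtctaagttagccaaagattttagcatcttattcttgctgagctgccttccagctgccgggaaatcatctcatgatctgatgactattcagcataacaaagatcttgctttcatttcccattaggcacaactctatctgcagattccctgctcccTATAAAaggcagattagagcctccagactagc
Ccl9: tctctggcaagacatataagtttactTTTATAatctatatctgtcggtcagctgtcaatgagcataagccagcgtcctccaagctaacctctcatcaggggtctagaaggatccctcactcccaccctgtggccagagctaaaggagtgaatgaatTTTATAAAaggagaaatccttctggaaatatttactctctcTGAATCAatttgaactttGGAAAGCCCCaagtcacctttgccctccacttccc
Ccl12 and Ccl8 each held 1 TATAAA, starting at position -31 and position -32 from the gene start, and no match to the AP-1 or NF-kB letters. Ccl9 held the AP-1 letters at position -53, the NF-kB letters at position -35 and 3 matches to TATAAA, 2 of them overlapping. Of 32851 promoters of the same length, 12.4% held TATAAA, 6.75% the AP-1 letters and 4.65% the NF-kB letters, and Ccl6 and Ccl3 held none of the 3. A STAT6 consensus, TTC, any 4 bases and GAA, found in 5.85% of promoters, was in none of the 5. A match to these letters is not evidence of a bound site. In global alignments the Ccl12 and Ccl8 stretches were identical in 57.5% of columns, the highest of the 10 pairs, which otherwise ran from 46.8% to 53.7%.

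Other genes of the chemokine system gave a context to the falls. Of a list of 15 receptors, those of CC chemokines and Cx3cr1, 13 had counts and 7 were tested in the whole-sample sums. In HFD 1 was higher and 4 were lower, beside 15.2% and 17.2% of all genes, with a median log2 fold change of -0.51. Ccr2, the receptor of Ccl2, Ccl7 and Ccl12, had a log2 fold change of -1.96 ± 0.15 (SE, adjusted p = 1.09e-04), Ccr1 of -1.80 ± 0.21 (SE, adjusted p = 4.84e-04), and Ccr3, the receptor of Ccl24, rose by 2.4005 ± 0.39 (SE, adjusted p = 0.00209). Of 12 other CC chemokines, 6 were tested, 2 were higher and 2 lower, with a median of 0.06. Ccl17 had a log2 fold change of -4.66 ± 0.49, Ccl19 of 2.87 ± 0.39 and Ccl11, the gene between Ccl7 and Ccl12, of 1.15 ± 0.26 (SE, adjusted p = 3.20e-04, 9.10e-04 and 0.00884). In macrophage-like sums Ccr1 was -1.67 ± 0.27, Ccr2 -0.95 ± 0.24 and Ccr3 4.01 ± 0.73 (log2 fold change ± SE, adjusted p = 0.00387, 0.026 and 0.00718), and Ccl17 alone of 5 other CC chemokines tested was called.

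Of 20 NF-kB regulation genes, a pathway that drives Ccl2 and Ccl3 transcription, 17 fell and 0 rose in HFD whole-sample sums (median -0.81), among them Il1b at -1.48 ± 0.16, Il6 at -2.27 ± 0.25 and Nfkbiz at -0.97 ± 0.13 (log2 fold change ± SE, adjusted p = 3.46e-04, 3.69e-04 and 7.59e-04). In macrophage-like sums 7 of the 20 fell and 1 rose. Of 15 interleukin 4 response genes, 14 were tested and 11 fell (median -1.33), led by Cd209a, Mrc1 and Mgl2 at -2.53 ± 0.18, -1.33 ± 0.10 and -3.02 ± 0.23 (log2 fold change ± SE, adjusted p = 8.93e-05, 8.93e-05 and 1.06e-04). Of 18 immediate early and digestion response genes, 17 were tested and 11 fell in whole-sample sums (median -0.42) and 11 in macrophage-like sums (median -0.70). In lipid-associated against other macrophage-like cells, 16 of 16 tested immediate early and 17 of 18 tested NF-kB genes were lower, as were 7 of the 9 chemokines. In resident macrophage-like cells 3 of 16 immediate early genes (Egr1, Nr4a1 and Ier3) and 2 of 12 NF-kB genes (Tnf and Nfkbid) were called lower in HFD. In monocyte-like cells none of the 16 immediate early genes tested was called, and 1 of 19 NF-kB genes was, Il6 at -3.62 ± 0.45 (SE, adjusted p = 0.0135). Over all genes tested, 17.2% were called lower in HFD in whole-sample, 10.9% in macrophage-like, 2.26% in resident and 0.32% in monocyte-like sums. For lipid-associated against other macrophage-like cells the share called lower was 11.8%. The part of these listed genes in the chemokine differences was not tested.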

How the data were processed

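Count tables of UMIs per gene and cell were deposited by the authors for 3 HFD and 3 control samples. Cell Ranger, Seurat 2.4 and mm9 are named, without roles, in the submitters' processing notes. Counts were used as deposited. Entries needed 200 or more detected genes and no more than 10% mitochondrial UMIs (5402 of 5511 passed), and 2114 cells remained after each barcode was assigned to the sample holding most of its UMIs. No doublet caller was run. Cells were clustered (scanpy 1.11.5, leidenalg 0.10.2, 2000 variable genes, 30 components, 20 neighbours, resolution 1.0) without chemokine and chemokine receptor genes, and clusters were named from marker lists with thresholds chosen after the data were seen. Raw counts were summed per sample and class and tested with edgeR 4.0.16 in R 4.3.3 (quasi-likelihood, TMM, filterByExpr, Benjamini-Hochberg threshold 0.05). Comparisons between classes had the sample as a block. A planned minimum of 20 cells per sum was lowered to 10 for resident and cDC2-like cells and for class comparisons after the data were seen.

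The method was tested on simulated data. Shares of cells used cells thinned to 2000 UMIs, and any intervals cover counting error only. The 9 genes, the gene lists and the markers were chosen with earlier results of these data known. Named genes are the 9, up to 3 genes of smallest p per list and comparison, and the 3 genes most alike each member. Alternatives were DESeq2 1.42.0, RLE scaling, no filter, other resolutions, shared barcodes kept or removed, a replicate block and leaving out each sample. RefSeq tables of GRCm38.p6 gave sequences and gene order only. Their build differs from mm9, and no coordinates from the files were used.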

Additional observations from a re-analysis of the deposited data

How the results depend on the processing

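Counts of all genes called, and single chemokines, moved with the processing as follows. In whole-sample sums 3389 genes were called, 2233 to 3333 with 1 sample left out. In macrophage-like sums 1539 were called, 3216 with the unnamed clusters and 516 to 2197 with 1 sample left out. Classical monocyte-like sums gave 21, against 35 in DESeq2, 175 without the filter on low counts and 1 to 72 with 1 sample left out. Resident macrophage-like sums gave 103, against 248 without the filter, 165 with all entries as deposited and 36 to 76 with 1 sample left out. The cDC2-like sums gave 157, against 282 without the filter, 23 and 19 at resolutions 0.5 and 2.0, and 59 to 128 with 1 sample left out. DESeq2 called 592 of the genes of the lipid-associated minus other comparison (edgeR 1776, 1243 to 1724 with 1 sample left out) and 594 of the lipid-associated minus resident comparison (edgeR 1041, 816 to 860). Resident minus other macrophage-like cells gave 737, against 438 among barcodes with at most 0.2 of the UMIs in a second entry and 424 to 666 with 1 sample left out.

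Deviations from the diet means were correlated between HFD and control samples. For equal replicate numbers the correlations were -0.157, -0.069 and -0.122 in whole-sample sums and -0.230, 0.004 and -0.109 in macrophage-like sums. For unequal numbers they ran from -0.024 to 0.151 and from -0.170 to 0.281. With 3 samples a diet and no reference for such values, they cannot show whether the samples were paired. With the replicate number as a block, 2416, 810, 10, 119 and 137 genes were called in whole-sample, macrophage-like, monocyte-like, resident and cDC2-like sums, and Ccl12 in resident cells was -0.047.

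Other signs turned in differences that were not called. In whole-sample sums Ccl9 was 0.14 among barcodes with a small second entry, 0.029 without fibroblast-like cells and -0.20 to 0.00302 with 1 sample left out. In macrophage-like sums Ccl9 was -0.14 with all entries, -0.028 with unnamed clusters and -0.046 to 0.33 with 1 sample left out, and Ccl4 -0.63 to 0.077. In resident cells Ccl12 was -0.12 with all entries and -0.12 to 0.75 with 1 sample left out, and Ccl4 -0.75 to 0.13. In cDC2-like cells Ccl9 was -0.046 with all entries, Ccl4 -0.0799 and -0.073 and Ccl6 -0.30 and -0.18 at resolutions 0.5 and 2.0. With 1 sample left out, Ccl6 there ran from -0.055 to 0.35 and Ccl2 from -0.56 to 0.18. For lipid-associated minus other, Ccl6 was 0.058 at resolution 0.5 and -0.22 to 0.022 with 1 sample left out, and for lipid-associated minus resident Ccl9 was -0.079 to 0.68. For resident minus other, barcodes with a small second entry gave -0.024 for Ccl4 and 0.18 for Ccl9, resolution 0.5 gave -0.0098 and 0.055, and Ccl9 was -0.59 to 0.023 with 1 sample left out. Of the alternative values of the 9 genes, calls were lost in 4 of 117 for whole-sample, 6 of 135 for macrophage-like and 11 of 99 for monocyte-like sums. For resident sums 4 of 117 were lost, and for lipid-associated minus other sums 4 of 81. The totals include genes with no call in the main fit to lose, so the shares understate how often calls were lost. Only 3 of the 9 genes were called in monocyte-like sums. In resident cells only Ccl2 and Ccl8 were, and all 4 losses there were of Ccl2. No call was lost in the 72 of lipid-associated minus resident and the 90 of resident minus other. The cause was not tested.

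Unthinned, 7 of the 9 shares were higher in resident than in lipid-associated cells, against 8 when thinned and 8 with any 1 sample left out. All 18 unthinned shares lay outside their binomial interval. Too few sums with the minimum of cells remained for the monocyte-like fit at other resolutions or with shared barcodes removed. The same held for cDC2-like cells with them removed and for resident cells at resolution 2.0. Clusters were named anew at each resolution, so a class can also lack sums because no cluster took its name. These calls were therefore not examined in those settings. Resident sums of 12 to 17 cells limit the depth in HFD.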
